A study of Mus musculus with 20 samples.

Results

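The transcripts of DNA replication and of nucleotide synthesis were followed as a module of 43 genes. They were listed by function, with earlier results of these data known. Of these, 42 had a row with their symbol on the arrays, among 19504 named genes, and Mcm7 was not analysed here. No member had more than 1 row. By role the measured members were 9 genes that license replication origins (Orc1, Orc6, Cdc6, Cdt1, Mcm2 to Mcm6), 6 that activate the replicative helicase (Mcm10, Cdc45, Gins1 to Gins4), 5 of the sliding clamp and its loader (Pcna, Rfc2 to Rfc5), 8 of the polymerases and primase (Pola1, Pola2, Prim1, Prim2, Pold1, Pold2, Pole, Pole2), 5 of single-strand binding and lagging-strand joining (Rpa1 to Rpa3, Fen1, Lig1), 4 of deoxynucleotide supply (Rrm1, Rrm2, Tyms, Tk1), 3 E2F factors (E2f1, E2f2, E2f8) and 2 of chromatin assembly (Chaf1a, Chaf1b).

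Expression was profiled on 20 arrays from mouse melanomas of 2 genotypes. In the B;p38α line (Tyr::CreERT2;BrafCA/CA;p38αlox/lox) a tamoxifen-dependent Cre under the tyrosinase promoter turned on BrafV600E and removed p38α, the stress kinase encoded by Mapk14, in melanocytes. In the B line (Tyr::CreERT2;BrafCA/CA) the same Cre turned on BrafV600E alone. Pups of both lines had 4-hydroxytamoxifen (5 mg/ml) put on the skin on postnatal days 2.5 and 3.5 and 1 UVB dose of 6.24 kJ per square meter on day 3.5. Tumors were taken at endpoint size, with neither age at that time nor sex given in the labels. The groups were complete B;p38α tumors (n = 3) and complete B tumors (n = 5), CD45+ cells of B;p38α and of B tumors (n = 3 each) and CD45- cells of B;p38α and of B tumors (n = 3 each). CD45 is the surface protein of leukocytes, and the CD45+ cells were taken from dissociated tumors with magnetic beads. Since Cre was restricted to melanocytes, leukocytes and stroma of B;p38α tumors carried floxed and not deleted p38α by design.

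Replication starts when the origin recognition complex, CDC6 and CDT1 load the MCM helicase onto DNA before S phase. CDC45, the GINS complex and MCM10 then switch the helicase on, primase and the DNA polymerases copy the strands behind it, PCNA tethers the polymerases after being loaded by replication factor C, and RPA covers the exposed single strands. E2F factors drive the transcription of most of these genes as cells leave G1, so that in tumors and in activated leukocytes the module's transcripts are widely read as a measure of cycling cells.

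The promoters of members are shown because E2F factors act there and because the members moved together between samples, as described below. Whether promoter motifs had a part in that movement was not tested. RefSeq (GRCm38.p6) promoters, from 250 bases before to 50 bases after the start, were available for 35 of the 42 members, and Gins1, Gins2, Gins4, Mcm4, Pole, Prim2 and Rfc2 had none in the table used. An E2F motif of 8 letters (TTTCCCGC, TTTCGCGC, TTTGCCGC or TTTGGCGC, either strand) was present in 12 of 35 member promoters (34.3%), namely those of Orc1, Cdc6, Cdt1, Mcm3, Mcm5, Mcm6, Gins3, Rfc3, Pola1, Pold1, Pole2 and E2f2. It was present in 1 of 19 promoters of mitosis genes (5.26%), in 3.01% of 15690 promoters of measured genes and in 2.32% of 27025 RefSeq promoters. With the last 6 of those 8 letters alone (either strand), which every 8-letter match contains, the shares were 82.9% of members and 78.9% of mitosis genes. They were 46.5% of measured genes and 36.4% of all promoters. The cell cycle homology region of late genes (TTTGAA, or TTTAAA, either strand) was found in 8 of 35 members (22.9%) and in 16 of 19 mitosis genes (84.2%). It was found in 24.7% of measured genes and in 27.8% of all promoters. The CCAAT box (CCAAT, either strand) was found in 62.9% of members, 78.9% of mitosis genes, 38.8% of measured genes and 37.9% of all promoters. The GC box (GGGCGG, either strand) was found in 71.4%, 73.7%, 48.2% and 35.9%, in the same order. A match describes letters only, and a promoter without one shows only that these letters were not in this window. Below are the promoters of the 3 members with the largest genotype differences in CD45+ cells (Chaf1b, E2f1, Mcm5) and of 3 members that passed the test between compartments, chosen after their values were seen (Cdt1, E2f2, Rpa3), with 8-letter E2F matches and CCAAT boxes in capitals. Chaf1b lies at chr16:93883651-93883950, plus strand, E2f1 at chr2:154569377-154569676, minus strand, Mcm5 at chr8:75109259-75109558, plus strand, Cdt1 at chr8:122567765-122568064, plus strand, E2f2 at chr4:136172024-136172323, plus strand and Rpa3 at chr6:8259092-8259391, minus strand.
Chaf1b: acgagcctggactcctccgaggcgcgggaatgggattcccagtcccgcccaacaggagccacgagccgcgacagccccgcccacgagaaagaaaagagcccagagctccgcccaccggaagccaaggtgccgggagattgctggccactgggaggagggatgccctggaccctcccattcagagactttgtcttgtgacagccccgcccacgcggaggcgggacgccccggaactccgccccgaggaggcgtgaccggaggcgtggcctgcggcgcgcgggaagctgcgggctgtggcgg
E2f1: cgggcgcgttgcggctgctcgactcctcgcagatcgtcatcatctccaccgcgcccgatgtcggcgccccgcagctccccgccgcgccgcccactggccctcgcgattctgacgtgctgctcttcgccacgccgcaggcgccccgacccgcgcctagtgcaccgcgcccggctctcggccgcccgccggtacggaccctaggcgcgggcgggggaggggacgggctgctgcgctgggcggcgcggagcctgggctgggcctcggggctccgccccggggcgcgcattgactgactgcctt
Mcm5: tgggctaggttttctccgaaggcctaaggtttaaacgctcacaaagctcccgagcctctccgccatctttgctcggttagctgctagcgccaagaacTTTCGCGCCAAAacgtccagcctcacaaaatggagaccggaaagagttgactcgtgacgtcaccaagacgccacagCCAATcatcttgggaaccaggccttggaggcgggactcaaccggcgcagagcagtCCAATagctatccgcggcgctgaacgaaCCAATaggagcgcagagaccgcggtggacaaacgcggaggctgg
Cdt1: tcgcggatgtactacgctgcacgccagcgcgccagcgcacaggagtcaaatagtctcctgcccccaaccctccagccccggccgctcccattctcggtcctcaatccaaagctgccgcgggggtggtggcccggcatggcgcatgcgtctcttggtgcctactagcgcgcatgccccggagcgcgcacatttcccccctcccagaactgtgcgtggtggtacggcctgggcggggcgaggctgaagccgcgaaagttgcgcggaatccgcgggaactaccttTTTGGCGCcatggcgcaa
E2f2: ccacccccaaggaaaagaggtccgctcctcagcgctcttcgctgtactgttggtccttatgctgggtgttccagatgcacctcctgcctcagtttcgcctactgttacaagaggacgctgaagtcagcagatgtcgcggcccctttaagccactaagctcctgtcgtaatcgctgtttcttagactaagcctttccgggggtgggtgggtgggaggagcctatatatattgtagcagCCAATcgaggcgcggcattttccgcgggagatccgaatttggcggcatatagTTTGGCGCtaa
Rpa3: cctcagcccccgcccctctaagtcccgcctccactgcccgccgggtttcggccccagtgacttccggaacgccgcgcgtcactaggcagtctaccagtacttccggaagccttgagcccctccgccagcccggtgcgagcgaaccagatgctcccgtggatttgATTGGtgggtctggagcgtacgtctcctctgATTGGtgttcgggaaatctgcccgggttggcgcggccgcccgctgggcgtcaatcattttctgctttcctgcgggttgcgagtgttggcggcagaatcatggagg
In Mcm5 a match on each strand overlaps in a single run of capitals, beside 3 CCAAT boxes. Cdt1 and E2f2 each have a match just after the start, and Rpa3 has 2 CCAAT boxes and no E2F match. The windows of Chaf1b and E2f1 have neither. Whether the E2f1 window lies at that gene's main start was not checked. The windows of E2f8, Pcna and Fen1, the members with the largest differences between CD45+ and CD45- cells, held no 8-letter match either. Of genes with several promoters in the table used, only the first listed was searched, and Fen1 and E2f2 had 2 each. All motif shares above rest on that choice.

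All levels below are deposited log2 values, on which a difference of 1 is a 2-fold change. Array medians lay between 6.75 and 7.02. B CD45- replicate 1 and B CD45+ replicate 2 had the narrowest values, with interquartile ranges of 2.95 and 3.41 against 3.62 to 3.89 on the other arrays, and replicates 1 and 2 of B;p38α CD45+ were the most alike of all replicate pairs (r = 0.991 across genes, against at most 0.979 for another pair). Mapk14, B;p38α minus B, was at -0.27 for complete tumors, -0.18 for CD45+ cells and -0.16 for CD45- cells, with no exact two-sided permutation p below 0.0714, where 0.0357 is the smallest that 3 against 5 samples allow and 0.1 the smallest for 3 against 3. Leukocyte markers averaged 10.53 to 11.26 in CD45+ cells, 6.11 to 9.18 in CD45- cells and 8.86 to 9.84 in complete tumors, whereas fibroblast markers stayed at 11.77 to 12.36 in CD45+ cells, against 12.31 to 13.04 in CD45- cells. Endothelial markers averaged 9.02 to 10.48 in CD45+ cells, against 7.52 to 9.86 in CD45- cells, so the CD45+ samples were not leukocytes alone. Melanocyte markers averaged 5.87 to 8.37 over all arrays. In bulk RNA like this, fewer cells of a type and less RNA per cell cannot be told apart. The titles number biological replicates but do not tie them to separate animals. The p-values below therefore cover only the scatter among the arrayed samples, some of it possibly technical.

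The members moved together from replicate to replicate, and in 5 of the 6 groups their mean level spanned more between replicates than it differed between genotypes. Averaged over the 42 members, the level was 7.60, 8.40 and 7.87 in the 3 complete B;p38α tumors, and 8.34, 7.74, 8.03, 7.70 and 7.90 in the 5 complete B tumors. In CD45+ cells it was 8.03, 8.05 and 7.89 in B;p38α, against 7.99, 7.36 and 7.54 in B. In CD45- cells it was 8.44, 7.68 and 7.77 in B;p38α, against 7.07, 8.07 and 7.67 in B. In 5 of the 6 groups 1 replicate stood above its companions, and B;p38α CD45+ was the group whose 3 samples lay closest.

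Nearly the whole module took part. In B;p38α CD45- cells replicate 1 was the highest of its group for 42 of 42 members, where it was highest for 39.2% of all genes. In B CD45+ cells replicate 1 was highest for 40 of 42 members (39.4% of all genes), the exceptions being Rpa1 and Pola1. In B CD45- cells replicate 2 was highest for 39 of 42 members (6632 of 19504 genes), with Orc1, Rpa1 and E2f2 as the exceptions. Among complete tumors, replicate 2 of B;p38α was highest for 37 members (34.2% of all genes) and replicate 1 of B for 32 members (17.8% of all genes). B;p38α CD45+ cells showed no such lead, with 15, 20 and 7 members highest in replicates 1, 2 and 3. At the low end, B CD45- replicate 1, the array of narrowest range, was lowest of its group for 37 members and for 47.1% of all genes.

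The members took part to unequal extents. Gins1, a subunit of the GINS complex, varied most. Its levels were 7.61, 6.48 and 6.31 in B;p38α CD45- cells, against 4.19, 6.85 and 6.60 in B CD45- cells. B;p38α replicate 1 stood highest, B replicate 1 stood lowest, and the groups overlapped. Mcm5, a subunit of the MCM ring, had 9.19, 7.68 and 8.05 in B;p38α CD45- cells, against 6.97, 8.51 and 7.70 in B CD45- cells, with the same samples highest and lowest. Rpa1, the large subunit of the single-strand binding protein, hardly moved, with 8.65, 8.57 and 8.60 in B;p38α CD45- cells and 8.37, 8.40 and 8.68 in B CD45- cells. The SD within groups was 0.80 for Gins1, 0.64 for the repressor E2f8, 0.63 for the primase subunit Prim1 and 0.61 for Mcm5. It was 0.15 for Rpa1, 0.17 for Gins4 and 0.21 for the clamp-loader subunit Rfc5. The median over members was 0.41, against 0.33 over all genes and 0.29 over the 11917 genes whose mean level lay within that of the members (5.92 to 11.37).

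Spread within groups made up a median of 61.5% of a member's variance over the 20 arrays, against 57.7% for all genes and 49.6% for genes of like level. It was lowest for Rpa3 (19.0%), Gins4 (27.9%) and E2f2 (32.4%), the members whose groups differed most relative to their replicates. It was highest for Gins3 (96.7%) and Rfc5 (95.2%).

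**Figure D1:**
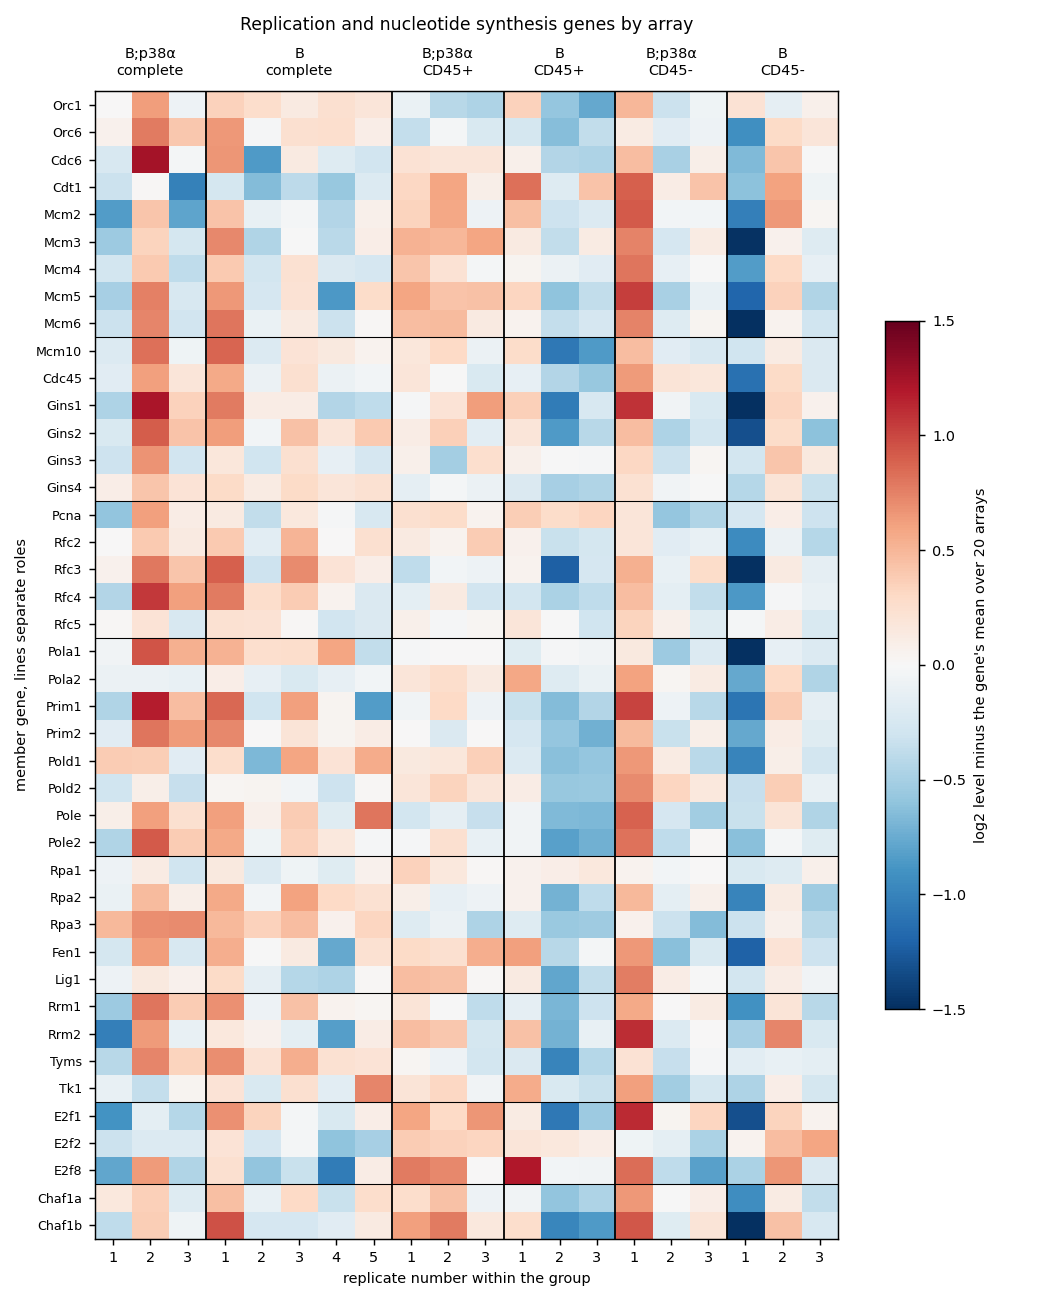
Heat map of the 42 members (rows, by role) on the 20 arrays (columns, by group and replicate), as log2 level minus the gene's mean over all arrays. Whole columns are red or blue: B;p38α CD45- replicate 1 is high for 42 of 42 members within its group and B CD45- replicate 1 is low for 37.

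Mitosis genes moved with the members. They were not members and were listed with earlier results of these data known. Of 22 measured mitosis genes, 21 were highest in B;p38α CD45- replicate 1, 20 in B CD45+ replicate 1, 20 in B CD45- replicate 2, 19 in complete B;p38α replicate 2 and 15 in complete B replicate 1. Their mean level was 8.30 ± 0.74 in B;p38α CD45- cells and 8.08 ± 0.67 in B CD45- cells (SD, n = 3 each). In CD45+ cells it was 8.40 ± 0.46 in B;p38α and 7.79 ± 0.50 in B. In B;p38α CD45+ cells the 3 mitosis levels were 8.69, 8.65 and 7.86, while the 3 member levels lay within 0.2 of each other.

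**Figure D2:**
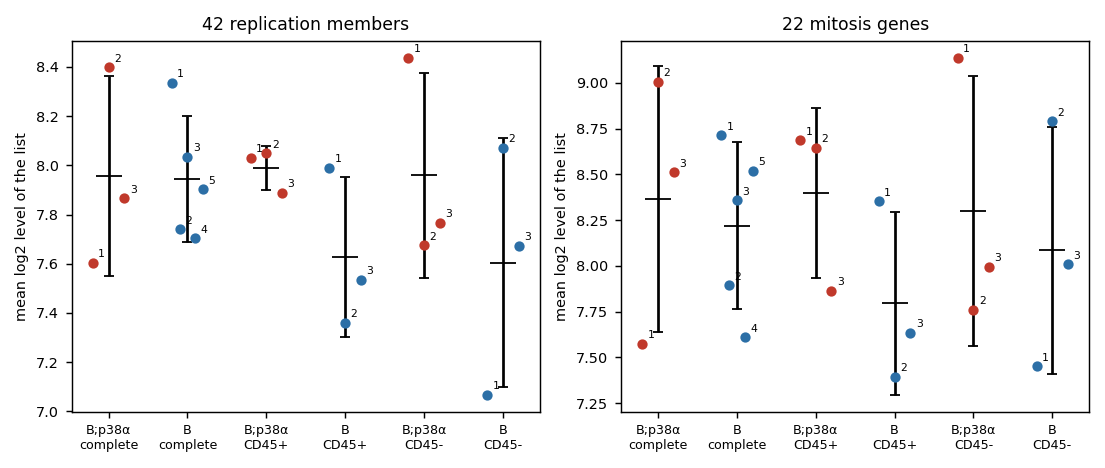
Mean log2 level of the 42 members (left) and of 22 mitosis genes (right) on each array, with the replicate number beside each point, red for B;p38α and blue for B, and bars for the mean and SD of each group. The same replicates stand high in both panels, and all pairs of genotype groups overlap.

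For complete tumors no member passed the test between the genotypes. None of the 42 passed an adjusted p under 0.05 (limma with Benjamini-Hochberg adjustment over 19504 genes), as was true of all genes (0% called). At an unadjusted p under 0.05, 1 member was lower (3.76% of all genes) and 0 were higher (2.85% of all genes). Groups overlapped for 42 of 42 members, where 1.92% of all genes were higher and 2.54% lower without overlap. The differences, B;p38α minus B, had 19 members above 0 (48.2% of all genes) and 23 below, a median of -0.00 (-0.01 for all genes) and a range of -0.66 to 0.43. E2f1, an activating E2F factor, lay lowest. Its levels were 6.11, 6.86 and 6.57 in B;p38α tumors, against 7.70, 7.34, 6.98, 6.78 and 7.10 in B tumors. The groups overlapped by a single sample on each side, and the difference was -0.66 (SE 0.24, adjusted p = 0.73). By role, the 4 deoxynucleotide genes all lay below 0, led by thymidine kinase Tk1 at -0.30 (SE 0.23), and Mcm2 of the MCM ring lay at -0.39 (SE 0.30). The largest positive values were 0.43 for the loading factor Cdc6 (SE 0.39), 0.33 for Gins1 (SE 0.38), 0.32 for Prim1 (SE 0.44) and 0.29 for Rpa3, the small RPA subunit (SE 0.16), none past the threshold. The Cdc6 value rested on replicate 2 of B;p38α, with 6.67, 8.16 and 6.88 in B;p38α tumors against 6.06 to 7.57 in B tumors, and it was -0.03 without that replicate. Skeletal muscle markers averaged 5.96, 8.97 and 11.00 in these B;p38α tumors, against 10.51 to 11.25 in B tumors. The part of muscle in the member values was not tested.

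In CD45+ cells the members stood mostly higher in B;p38α, but none passed the test. Of 42 members, 39 lay above 0, where 50.4% of all genes did, with a median of 0.32 against 0.00 for all genes. None had an adjusted p under 0.05, again with 0% of all genes called, and 12 were higher at an unadjusted p under 0.05, against 5.69% of all genes, while 0 were lower (5.08% of all genes). All 12 of those adjusted p-values lay above 0.4. Groups did not overlap for 12 members that were higher (9.16% of all genes) and for 1 that was lower, Pcna (7.35% of all genes).

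The largest CD45+ values came from chromatin assembly, E2F and MCM genes. Chaf1b, a subunit of the histone chaperone CAF-1, had 7.89, 8.05 and 7.43 in B;p38α, against 7.54, 6.29 and 6.42 in B. The groups overlapped because of B replicate 1, and the difference was 1.04 (SE 0.35, adjusted p = 0.45). E2f1 had 7.60, 7.30 and 7.67 in B;p38α, against 7.13, 5.93 and 6.46 in B. Here every B;p38α sample lay above every B sample, with a difference of 1.02 (SE 0.30, adjusted p = 0.42). Mcm5 likewise had 8.75, 8.59 and 8.60 in B;p38α, against 8.49, 7.55 and 7.80 in B, a difference of 0.70 (SE 0.25, adjusted p = 0.45). The catalytic subunit of polymerase delta, Pold1, was separated too, with 6.75, 6.78 and 6.96 in B;p38α against 6.40, 5.97 and 6.02 in B. Its difference was 0.70 (SE 0.18), and its adjusted p of 0.41 was the lowest of any member. In all of these the spread was larger in B than in B;p38α.

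Each role group leaned the same way. The members moved together between replicates, as given above, so these counts by gene and role come from the same samples and are not independent. All 8 polymerase and primase genes lay above 0 in CD45+ cells (median 0.49), among them Prim1 at 0.53 (SE 0.18), the polymerase delta subunit Pold2 at 0.57 (SE 0.22) and Pole2 of polymerase epsilon at 0.56. Of the 9 licensing genes 8 lay above 0 (median 0.30), with 0.57 for Mcm3 (SE 0.19) and 0.54 for Mcm6 (SE 0.19), and of the 6 helicase activators 5 did (median 0.41), led by Mcm10 at 0.68 (SE 0.35) and Gins1 at 0.58. The clamp and its loader had 4 of 5 above 0 (median 0.28), with Rfc2 highest at 0.37. All 5 single-strand and lagging-strand genes lay above 0 (median 0.30), with DNA ligase Lig1 at 0.64 (SE 0.26), as did the 4 deoxynucleotide genes (median 0.32), with thymidylate synthase Tyms at 0.43. The other chromatin assembly gene, Chaf1a, lay at 0.58 (SE 0.22). The 3 members below 0 were Pcna, the clamp itself, at -0.13 (SE 0.15), Gins3 at -0.08 (SE 0.22) and Cdt1 at -0.03 (SE 0.28).

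The CD45+ result rested on few arrays. Without B replicate 1, whose members were the highest of its group, the median member difference was 0.54, and without B replicate 2, an array of narrow range, it was 0.21. With limma array weights 22 members were higher at an adjusted p under 0.05, but so were 13.8% of all genes, and B replicate 3 then carried a weight of 6.39 against 0.33 to 1.93 on the other 5 arrays. With the Y-linked genes as a covariate 4 members were higher, Chaf1b at 1.99, E2f1 at 1.80, Mcm10 at 1.67 and Mcm5 at 1.37, against 0.492% of all genes. Y-linked genes, which track male RNA, averaged 3.23, 3.01 and 2.75 in B;p38α CD45+ cells, against 8.67, 4.30 and 5.36 in B CD45+ cells, so that covariate and genotype cannot be told apart well here. They ran from 2.99 to 3.85 in complete B;p38α tumors, against 2.76 to 9.29 in complete B tumors. In CD45- cells they ran from 3.30 to 8.81 in B;p38α and from 2.79 to 8.60 in B. Endothelial markers averaged 9.02, 9.10 and 10.35 in B;p38α CD45+ cells, against 10.37, 10.35 and 10.48 in B CD45+ cells, and leukocyte markers averaged 10.55, 10.53 and 11.26 against 11.19, 11.02 and 11.10. Alas2, the 1 erythroid marker measured, stood at 7.32, 7.19 and 8.03 in B;p38α CD45+ cells, against 8.01, 9.36 and 9.74 in B CD45+ cells. Their part in the member values was not tested.

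In CD45- cells the members again stood mostly higher in B;p38α without passing the test. Of 42 members 36 lay above 0 (55.8% of all genes), with a median of 0.41 against 0.05 for all genes. None was called, where 0.0103% of all genes were, 0.00513% in each direction. At an unadjusted p under 0.05, 0 members were higher (3.5% of all genes) and 1 was lower (3.27% of all genes), and 0 were higher without overlap (10.6% of all genes). The largest differences were 0.92 for Gins1 (SE 0.73), 0.80 for E2f1 (SE 0.49), 0.79 for Mcm6 (SE 0.45), 0.77 for the clamp-loader subunit Rfc3 (SE 0.47) and 0.75 for Mcm3 (SE 0.46) and Chaf1b (SE 0.53). The median was 0.12 without B replicate 1, 0.13 without B;p38α replicate 1 and 0.66 without B replicate 2. With B replicate 1 left out, E2f1 was at 0.30, Gins1 at 0.08 and Chaf1b at 0.22. The same B;p38α replicate 1 had the lowest leukocyte markers, at 6.11, 7.97 and 8.30 in B;p38α CD45- cells, against 9.18, 9.10 and 8.82 in B CD45- cells. Macrophage markers were 6.16, 8.34 and 9.64 in B;p38α, against 10.36, 10.23 and 9.64 in B. Their part in the member values was not tested.

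Pcna, E2f8, Gins3, Rpa3 and Orc1 lay between -0.13 and -0.01 in CD45- cells, below most members. E2f2, an activating E2F factor, lay lowest of all members there. Its levels were 6.86, 6.77 and 6.45 in B;p38α CD45- cells, against 6.98, 7.39 and 7.52 in B CD45- cells. All B;p38α samples lay below all B samples, as for 5.36% of all genes, and the difference was -0.60 (SE 0.24, adjusted p = 0.68). In CD45+ cells the order was turned round. There E2f2 had 7.31, 7.27 and 7.25 in B;p38α, against 7.10, 7.09 and 7.02 in B, again without overlap, a difference of 0.21 (SE 0.14, adjusted p = 0.58). The 2 differences were 0.81 apart (SE 0.28, unadjusted p = 0.01), which did not pass adjustment over all genes (adjusted p = 1.00).

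**Figure D3:**
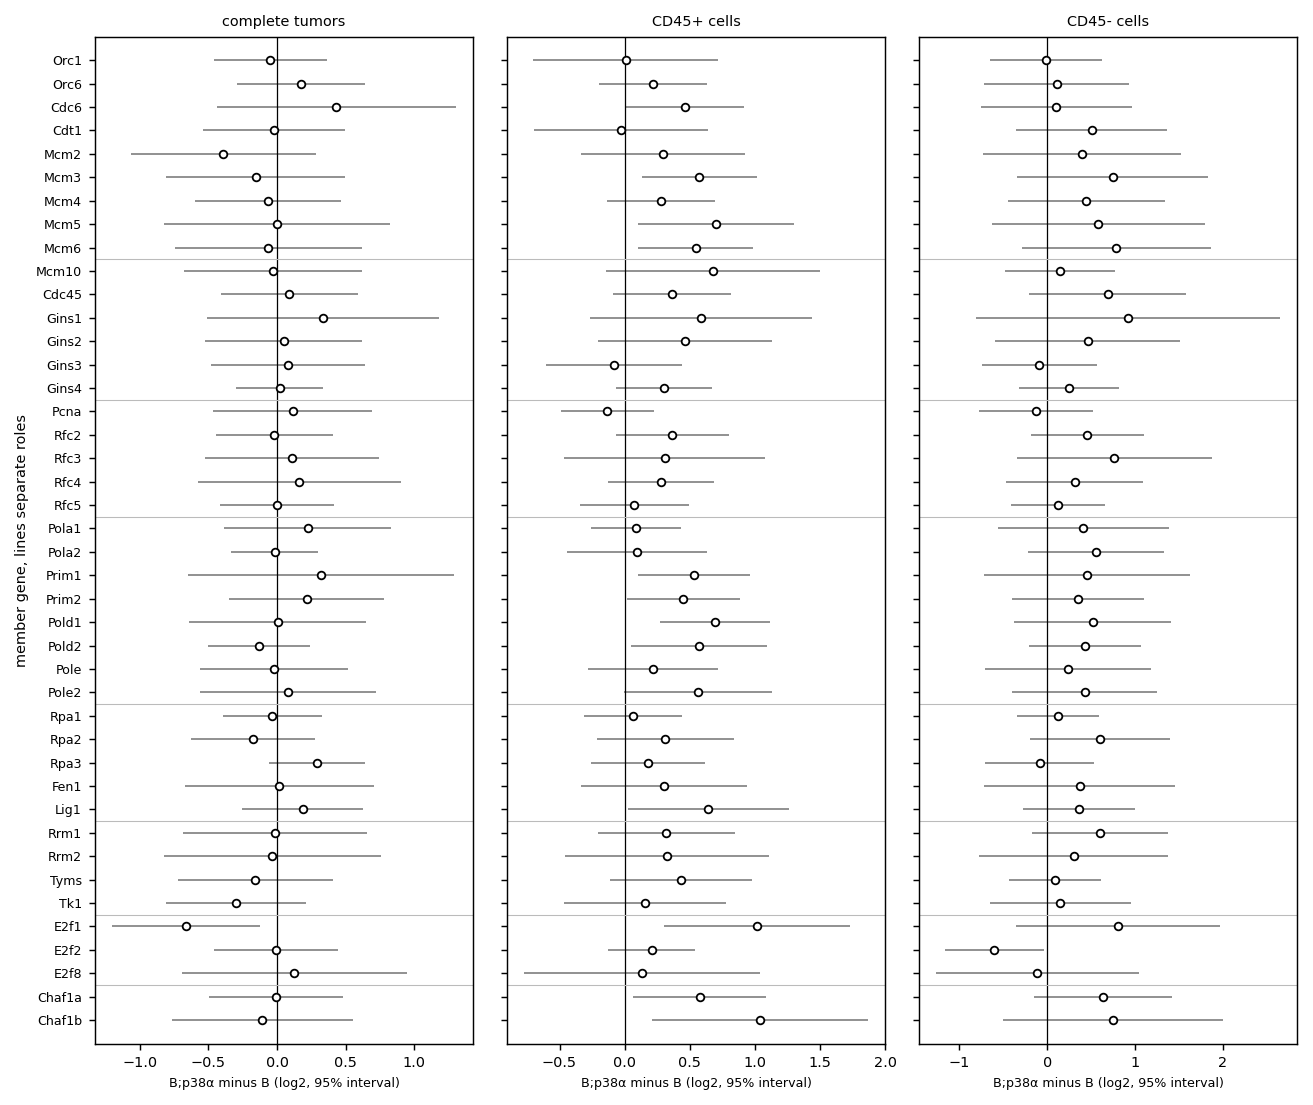
Difference between the genotypes (B;p38α minus B, log2) for each member in complete tumors, CD45+ cells and CD45- cells, with 95% intervals; open circles did not pass an adjusted p under 0.05, and the panels have different scales. Points straddle 0 in complete tumors, while 39 members in CD45+ cells and 36 in CD45- cells lie to the right of 0.

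With all 20 arrays and compartment as a covariate, 37 of 42 members lay above 0 (53.1% of all genes), with a median of 0.24 against 0.02 for all genes. None passed the adjusted threshold, against 0.082% of all genes called in either direction, and 4 were higher at an unadjusted p under 0.05 (7.88% of all genes). The DNA ligase Lig1 came nearest, at 0.38 (SE 0.14, adjusted p = 0.24), and the largest values were 0.59 for Gins1 (SE 0.32) and 0.51 for Chaf1b (SE 0.26). The interaction contrasts, which ask whether the genotype difference differs between compartments, called 0 members and 0% of all genes. E2f1 had the largest of these, with a difference 1.68 higher in CD45+ cells than in complete tumors (SE 0.53, adjusted p = 0.68) and 1.47 higher in CD45- cells than in complete tumors (adjusted p = 0.47). These contrasts share the complete tumors. Array weights put 2 members past the threshold for CD45+ cells against complete tumors, E2f1 at 1.57 and Pold2 at 0.87, along with 2.11% of all genes called higher.

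Between compartments some single members passed the test, but counted in either direction the share of members called was below that of all genes. CD45+ cells, averaged over both genotypes, differed from complete tumors in 9 of 42 members at an adjusted p under 0.05. Of these 2 were higher and 7 were lower. The 9 made up 21.4% of members, where 25.8% of all genes were called. By direction 4.76% of members were higher and 16.7% lower, against 12.9% of all genes in each direction. The median member difference was -0.17, against -0.00 for all genes, and it was 0.00 without replicate 2 of the complete B;p38α tumors.

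Rpa3, the small subunit of the single-strand binding protein, lay furthest below. Its levels in CD45+ cells were 8.37, 8.48 and 8.10 in B;p38α and 8.38, 8.02 and 8.03 in B. In complete tumors they were 9.06, 9.27 and 9.28 in B;p38α and 9.06, 8.92, 9.03, 8.64 and 8.89 in B. Every CD45+ sample lay below every complete tumor, and Rpa3 fell by 0.82 (SE 0.13, adjusted p = 0.0002). The other RPA subunits differed from it, with Rpa2 at -0.43 (SE 0.18, adjusted p = 0.093) and Rpa1 at 0.20 (adjusted p = 0.17).

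Orc6, a subunit of the origin recognition complex, also separated fully. It had 7.18, 7.49 and 7.30 in B;p38α and 7.26, 6.89 and 7.16 in B CD45+ cells, where complete tumors ran from 7.51 to 8.31. It fell by 0.64 (SE 0.18, adjusted p = 0.013). Gins4 had 9.03, 9.14 and 9.07 in B;p38α and 8.95, 8.66 and 8.72 in B CD45+ cells, below the 9.27 to 9.58 of all complete tumors, and fell by 0.47 (SE 0.11, adjusted p = 0.0047). These 3 genes made up the members without overlap and lower, against 4.03% of all genes. Tyms, which makes thymidylate, ran from 7.62 to 8.64 in CD45+ cells, against 8.19 to 9.35 in complete tumors, and fell by 0.62 (SE 0.17, adjusted p = 0.012) with some overlap. The catalytic subunit of polymerase epsilon, Pole, fell by 0.68 (SE 0.22, adjusted p = 0.027), the primase subunit Prim2 by 0.61 (SE 0.19, adjusted p = 0.023) and Orc1 by 0.54 (SE 0.18, adjusted p = 0.033). Calls of those last 3 did not hold in 4 to 7 of 28 alternative settings, all of which left out 1 array or both arrays of narrow range, whereas Rpa3, Orc6, Gins4, Tyms, Cdt1 and E2f2 passed in 28 of 28.

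Cdt1 and E2f2 were higher in CD45+ cells. Cdt1, which loads the MCM helicase, had 7.76, 8.04 and 7.54 in B;p38α and 8.29, 7.26 and 7.88 in B CD45+ cells. In complete tumors it had 7.14, 7.47 and 6.45 in B;p38α and 7.19, 6.81, 7.06, 6.89 and 7.25 in B. Only complete B;p38α replicate 2 reached into the CD45+ range, and the difference was 0.77 (SE 0.22, adjusted p = 0.014). E2f2 ran from 7.02 to 7.31 in CD45+ cells, against 6.32 to 7.13 in complete tumors, a difference of 0.49 (SE 0.13, adjusted p = 0.011). E2f8 lay at 0.70 (SE 0.32) without passing (adjusted p = 0.13).

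The same complete tumors served as reference for CD45- cells, so the comparisons are not independent and their values are given side by side. In CD45- cells 2 of 42 members were called (12.7% of all genes), 0 higher (6.24%) and 2 lower (6.47%). Rpa3 was lower here as well, with 8.63, 8.24 and 7.92 in B;p38α and 8.25, 8.64 and 8.15 in B CD45- cells, and it fell by 0.75 (SE 0.13, adjusted p = 0.0021). B CD45- replicate 2 reached the level of the lowest complete tumor, so the compartments touched. Pola1, the catalytic subunit of polymerase alpha, fell by 0.77 (SE 0.22, adjusted p = 0.031). Its levels were 8.59, 7.90 and 8.24 in B;p38α and 6.94, 8.32 and 8.23 in B CD45- cells, against 8.07 to 9.39 in complete tumors. That call did not hold without B CD45- replicate 1, nor in 6 other settings. Cdt1 was at 0.65 (SE 0.22, adjusted p = 0.055), E2f2 at 0.31 (adjusted p = 0.13), Orc6 at -0.43 (adjusted p = 0.13), Tyms at -0.39 (adjusted p = 0.14) and Gins4 at -0.29 (adjusted p = 0.089). In all, 29 of 42 members lay below 0, with a median of -0.20 against 0.04 for all genes. The number of members called lower ran from 1, without for example B CD45- replicate 1, to 6, without complete B;p38α replicate 1 or B CD45- replicate 2.

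Sorted and complete samples also differed in handling and makeup. Genes induced by tissue dissociation averaged 10.91 to 11.78 in CD45+ cells and 9.60 to 10.98 in CD45- cells, against 8.05 to 9.58 in complete tumors. Skeletal muscle markers averaged 5.58 to 6.37 in CD45+ cells and 5.58 to 6.15 in CD45- cells, against 5.96 to 11.25 in complete tumors. Their part in the member differences was not tested.

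**Figure D4:**
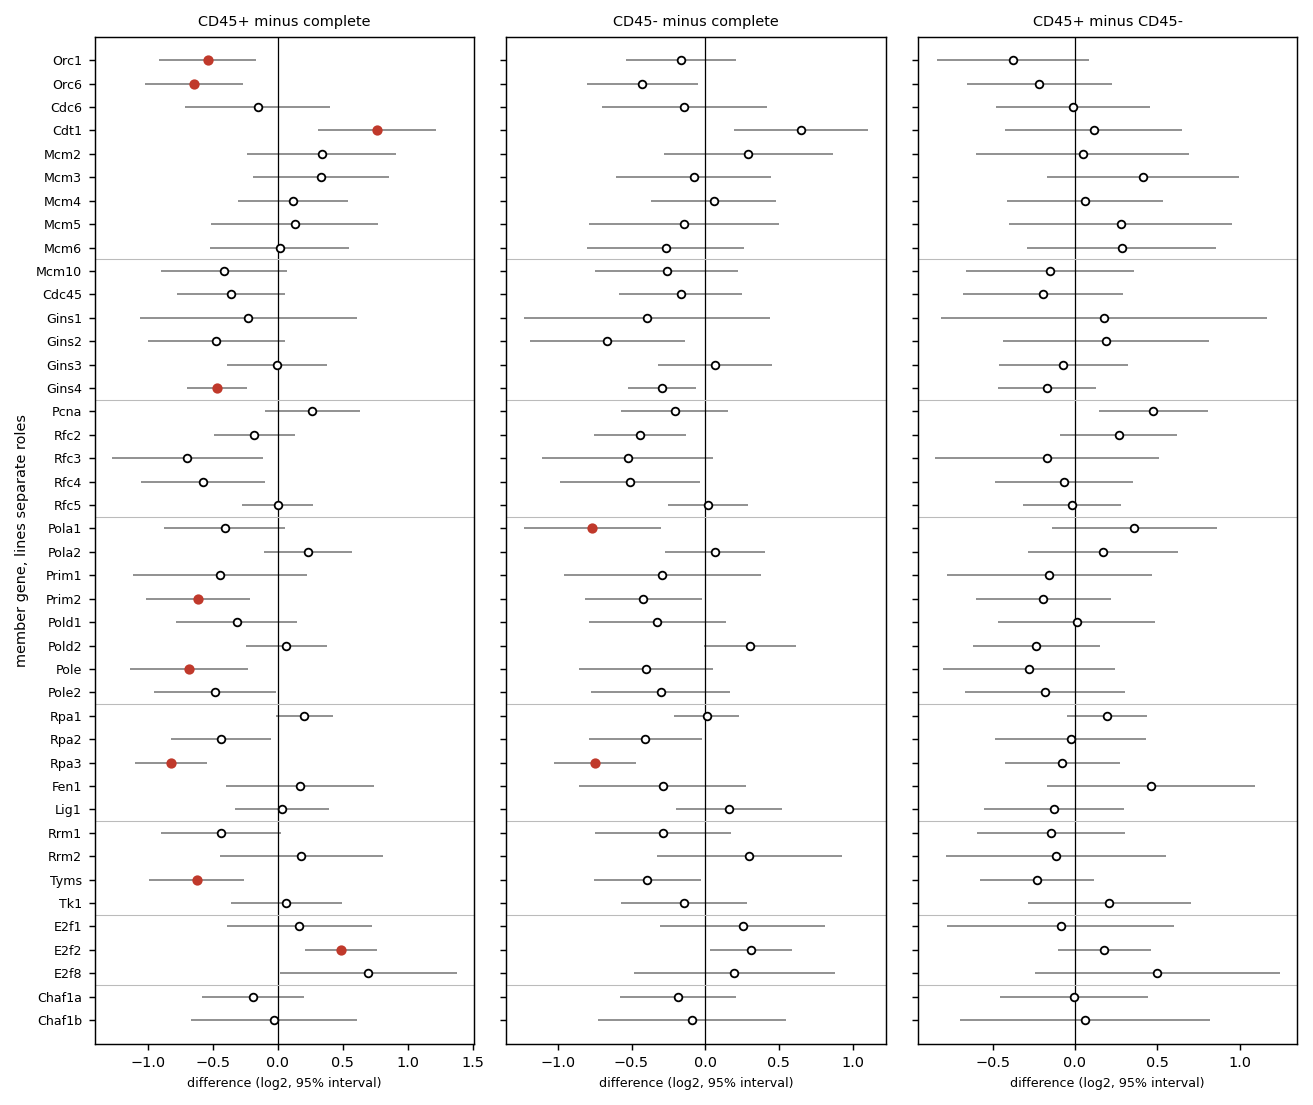
Difference of each member between compartments (log2, averaged over both genotypes) with 95% intervals, for CD45+ minus complete, CD45- minus complete and CD45+ minus CD45-; filled red circles passed an adjusted p under 0.05, and the panels have different scales. The 9, 2 and 0 red points include Rpa3 far to the left in the first and second panels, and Cdt1 and E2f2 to the right in the first.

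Between the sorted populations no member passed. Of 42 members, 19 differences (CD45+ minus CD45-) lay above 0 and 23 below, where 38.6% of all genes lay above 0. None passed the adjusted threshold, while 12.2% of all genes did, 7.79% higher and 4.37% lower. No member was without overlap, against 5.78% of all genes higher and 1.62% lower. The median was -0.02, against -0.08 for all genes. Pcna came nearest. Its levels were 11.61, 11.65 and 11.43 in B;p38α and 11.74, 11.66 and 11.69 in B CD45+ cells, against 11.56, 10.80 and 10.92 in B;p38α and 11.12, 11.48 and 11.06 in B CD45- cells. The CD45+ samples were tightly grouped, and B;p38α CD45- replicate 1 and B CD45- replicate 2 overlapped with them. The difference was 0.47 (SE 0.15, adjusted p = 0.067). It passed in 4 of 21 alternative settings, at 0.47 to 0.59. Values of 0.50 for E2f8 (SE 0.34), 0.46 for Fen1, the flap endonuclease (SE 0.29), and 0.41 for Mcm3 (SE 0.26) followed, with Orc1 lowest at -0.38 (SE 0.21), Pole at -0.28 and Pold2 at -0.24.

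Within each genotype 0 members were called. In B;p38α 4.78% of all genes were called, 4.34% higher in CD45+ cells, and in B 4.66%, 3.9% higher and 0.759% lower. Before adjustment, with p under 0.05, 2 members were higher in B;p38α (8.42% of all genes) and 1 in B (9.85% of all genes), and 20 lay above 0 in each, against 39.2% and 43.7% of all genes. In B;p38α, E2f2 lay higher in every CD45+ sample than in any CD45- sample (11.2% of all genes higher and 17.3% lower without overlap). Its difference was 0.58 (SE 0.18, adjusted p = 0.11), and E2f8 was at 0.62 (SE 0.48). In B, Pcna lay higher in every CD45+ sample (11.4% of all genes), at 0.48 (SE 0.21, adjusted p = 0.29), and Tyms lay lower in every CD45+ sample (8.63% of all genes), at -0.40 (SE 0.22, adjusted p = 0.41). With array weights E2f2 passed in B;p38α at 0.59, as did Pcna at 0.60, and E2f2 passed at 0.58 without B CD45- replicate 1.

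**Figure D5:**
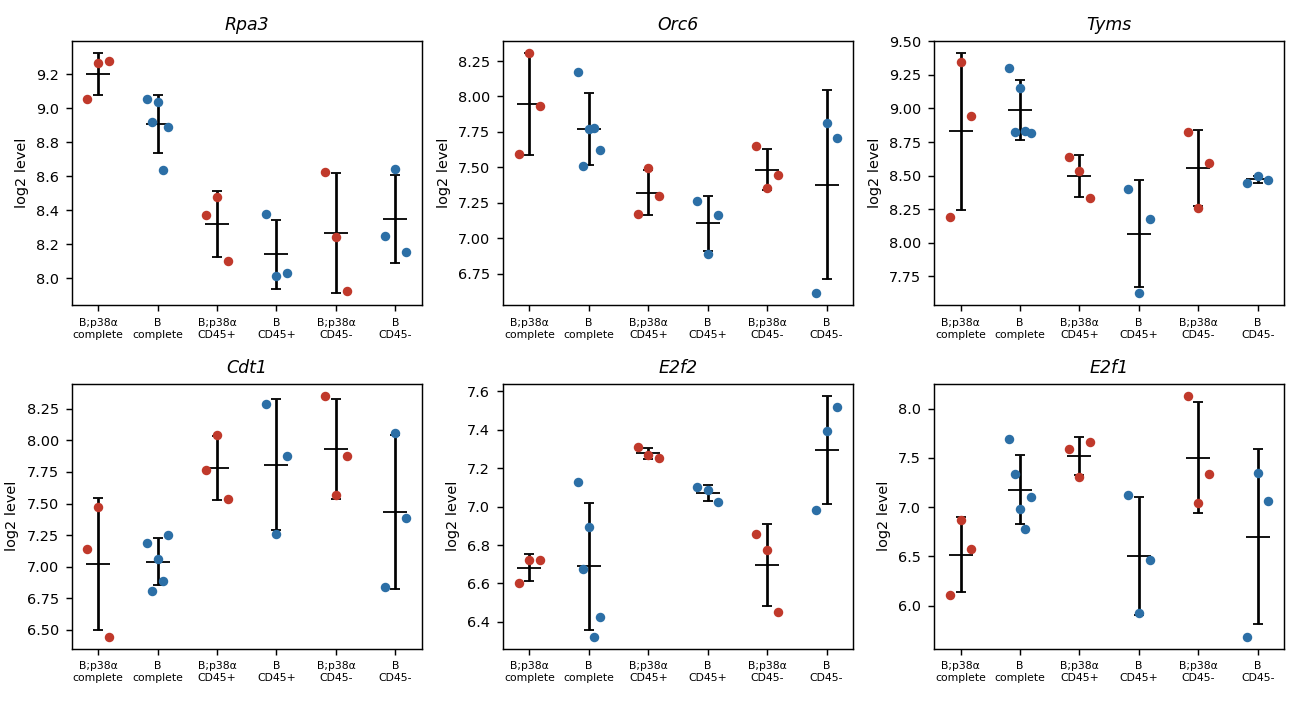
Log2 levels of Rpa3, Orc6, Tyms, Cdt1, E2f2 and E2f1 in every sample, by group, red for B;p38α and blue for B, with bars for the mean and SD. The mean of Rpa3 is lower in each sorted group than in complete tumors, and E2f2 is higher in B;p38α than in B among CD45+ cells and lower among CD45- cells.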

How the data were processed

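RNA of 20 samples was labeled with biotin for single-color arrays, per the labels' protocols. The values deposited by the authors are on a log2 scale, and RMA is the tool named, without version, per the submitters' processing notes. RMA corrects background, normalizes and summarizes probes, and is known to compress differences of dim probes. Whether all arrays were normalized in 1 run is not given in the sources used. Raw scanner data were not used here.

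The table had 21244 rows (1.31 to 14.15, 0 missing values) and 0 columns of other samples. The platform annotation gave 1 symbol for 19570 rows and none for 1674, and of several rows per gene the one with the highest mean was kept (66 left out).

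Groups came from the labels. Comparisons were fitted with limma 3.58.1 (lmFit, eBayes; R 4.3.3) over all 19504 genes, with Benjamini-Hochberg adjusted p under 0.05. Genotype differences were fitted within compartments, CD45+ against CD45- over the 4 sorted groups, and all else over all 6 groups. Arrays have no depth, and their number limits precision. Mapk14 was tested with scipy 1.17.1, and figures were drawn with matplotlib 3.10.9. The tests were also run on simulated data, in which each gene varied on its own with the same SD in all groups. Those data held no movement shared between genes, so they do not show how the tests behave under it.

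The members, pathway lists, markers, tests and naming rule were chosen with earlier results of these data known. The rule named up to 12 members each way past the threshold, filled to 6 each way by size of difference, at least 2 per role, up to 4 genes of a pathway list each way, and Mapk14. For G1 to S regulators, all genes called lower in CD45+ cells against complete tumors were named, beyond that limit. For promoters it took the 3 members with the largest genotype difference in CD45+ cells and the 3 with the largest CD45+ minus CD45- difference, and those of the second set were searched but not printed. Equal replicate numbers were taken not to pair samples: deviations from group means correlated between -0.568 and 0.363, and in 0 of 9 pairs of groups was every correlation over 0.1. Alternatives were a single fit of all groups, array weights, the replicate number as a block, no dim genes (mean level below the 30th percentile), quantile normalization repeated, all rows, Y-linked genes as a covariate, and leaving out each array. Leaving out both arrays of narrowest range and averaging the 2 most similar arrays were chosen after seeing the data.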

Additional observations from a re-analysis of the deposited data

Results flagged for a closer look

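Prim2, a primase subunit, had a high sample among the complete B tumors: replicate 1 was at 9.539, and the lowest of the other 4 at 8.82. Replicate 1 was also the highest of its group for 32 of 42 members. Pold2 of polymerase delta had a low sample in the same group, with replicate 4 at 8.976 and the other 4 between 9.24 and 9.33. By chance about 1 in 20 groups gives such a sample, and 42 members were examined in this group.

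The genotype difference of E2f2 ran in opposite directions in the sorted populations, at 0.2063 in CD45+ cells and -0.6014 in CD45- cells, with every sample of one genotype on its own side in each. The difference between them was tested: it was 0.81 (SE 0.28, unadjusted p = 0.01) and did not pass adjustment over all genes (adjusted p = 1.00).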

How the results depend on the processing

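Of 4025 values recomputed for 176 results, 3915 were taken as unchanged, and 3 reversed. Single genes were unchanged if they kept direction and side of the threshold or, for small uncalled differences, moved by less than their SE. Medians were unchanged if they moved by less than the replicate spread. Counts of members called were unchanged if equal or, with both above 0, of similar size. Cdc6 in complete tumors ranged from -0.027 (without B;p38α replicate 2) to 0.72 when single arrays were left out, and Mcm6 in CD45+ minus CD45- of B from -0.060 (without B CD45- replicate 1) to 0.72, with -0.022 under array weights. Array weights gave 22 members higher between the genotypes in CD45+ cells, 2 for that difference in CD45+ cells minus that in complete tumors, 2 in CD45+ minus CD45- of B;p38α, 1 in CD45+ minus CD45-, 1 in CD45- minus complete, 16 lower in CD45+ minus complete, and an interaction median of 0.41 for CD45+ against CD45-. The Y-linked covariate gave 4 higher and a median of 0.82 in CD45+ cells. Leaving out dim genes, or repeated quantile normalization, gave 1 higher in CD45+ minus CD45- (Pcna) and 1 in CD45- minus complete (Cdt1). The cause was not tested. Leaving out both arrays of narrowest range, chosen after seeing the data, gave 1 higher and 1 lower in CD45- minus complete. Over single arrays left out, the CD45+ genotype median ranged from 0.21 to 0.54 and that of CD45+ minus CD45- in B;p38α from -0.16 to 0.26. Counts ranged from 0 to 1 higher and 0 to 1 lower in CD45+ minus CD45- (Pcna without B;p38α CD45- replicate 1, Orc6 without B CD45- replicate 1), 0 to 1 higher in B;p38α, 4 to 10 lower in CD45+ minus complete (4 without complete B;p38α replicate 2 or B CD45+ replicate 3), and 0 to 1 higher and 1 to 6 lower in CD45- minus complete. Among single genes, 35 values newly passed, 24 no longer passed and 14 small differences moved by at least their SE.

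With the replicate number as a block, no count of members called changed (7 lower and 2 higher in CD45+ minus complete, 2 lower in CD45- minus complete), and the CD45+ genotype median stayed 0.32. The numbers did not pair the samples by the check used, which compared equal numbers only. Whether samples with different numbers shared a tumor was not examined, and the main tests treated all samples as independent.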

Other observations

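Genes around the module, from lists chosen with earlier results of these data known, were called mostly between compartments. Among 18 other nucleotide synthesis genes, Samhd1, the phosphohydrolase that breaks down deoxynucleotides in myeloid cells, was 1.73 higher in CD45+ than in CD45- cells (SE 0.18, adjusted p = 8.8e-05), and Dck, the salvage kinase of lymphoid cells, was 1.01 higher (SE 0.22, adjusted p = 0.01). These were the 2 called of that list, a count beside 7.79% of all genes called higher and 4.37% lower. Against complete tumors, CD45+ cells had Samhd1 1.29 and Dck 0.93 higher, with Impdh1 of guanine synthesis at 0.48, while Ctps, which makes CTP, fell by 0.79 and Dtymk, thymidylate kinase, by 0.71. The 3 higher and 2 lower genes stood against 12.9% of all genes called each way. CD45- cells had 1 gene called against complete tumors, Impdh1, at 0.50, where 6.24% of all genes were called higher and 6.47% lower.

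Among 25 other replication factors, Dna2 was 1.42 higher (SE 0.28, adjusted p = 0.0063) and Donson 0.64 higher (SE 0.12, adjusted p = 0.0049) in CD45+ than in CD45- cells, with 0 lower, which is close to the 7.79% of all genes called higher. Dna2 was also the 1 of the 25 called in CD45- cells against complete tumors, beside 6.24% of all genes called higher and 6.47% lower. It fell there by 0.90 (SE 0.25, adjusted p = 0.024). In CD45+ cells it differed by 0.52 from the same complete tumors (SE 0.25, adjusted p = 0.14) and was not called. Against complete tumors, CD45+ cells had 3 of the 25 lower, Orc2 at -0.58, Orc3 at -0.47 and Pole3 at -0.35, and 1 higher, Donson at 0.41. Of all genes 12.9% were called each way. Among 27 regulators of the step from G1 to S, CD45+ cells had 3 higher and 6 lower than complete tumors, where 12.9% of all genes were called each way. Myc was 1.60 higher, the inhibitor Cdkn1b 0.78 higher and Rb1 0.45 higher, while Cdkn2a fell by 2.31, cyclin Ccne2 by 0.99, Cdk4 by 0.67, E2f5 by 0.59, Skp2 by 0.51 and E2f6 by 0.36. CD45- cells had 2 higher and 3 lower of the 27 against the same complete tumors, beside 6.24% and 6.47% of all genes. Myc was 1.25 and Tfdp2 0.51 higher, while Ccne2 fell by 0.82, Skp2 by 0.64 and E2f5 by 0.39. In CD45+ minus CD45-, cyclin Ccnd2 was called at -0.69 (adjusted p = 0.027) and Rb1 at 0.55 (adjusted p = 0.026). Of all genes 7.79% were called higher there and 4.37% lower. From the mitosis list Top2a was called at -0.94 (adjusted p = 0.021) in CD45+ cells against complete tumors. From the chromatin list Ezh2 was called at -0.45 (adjusted p = 0.031), again beside 12.9% of all genes lower. Dissociation genes were higher in both sorted populations than in complete tumors, as given above.

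Between the genotypes 0 genes of these 5 lists were called within a compartment. Over all compartments 1 of 8 replication-coupled chromatin genes, Dnmt1, was 0.85 higher in B;p38α (SE 0.14, adjusted p = 0.012), and 1 of 22 mitosis genes, Hjurp, was 1.54 higher (SE 0.19, adjusted p = 0.00053), where 0.082% of all genes were called.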
